A study of Mus musculus with 9 samples.

Results

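The 7 genes described here encode the cyclin-dependent kinase (CDK) inhibitors of the mouse: Cdkn1a, Cdkn1b and Cdkn1c of the Cip/Kip family, and Cdkn2a, Cdkn2b, Cdkn2c and Cdkn2d of the INK4 family. Every probe set whose annotated symbol was one of these names was taken, on all 9 arrays, which gave 9 probe sets of the 45101 in the table: 2 each for Cdkn1a and Cdkn1b and 1 for each other gene. At the gene level they were 7 of 18193 genes. The RNA came from mouse small intestinal organoids, epithelial structures grown in culture, and was measured on Affymetrix Mouse Genome 430 2.0 arrays. The untreated group had 3 arrays, the group given an inhibitor of the receptors TgfbR1/2 at 20 uM had 3, and the group given Tgfb1 ligand at 0.04 ng/mL had 3. Organoids of all groups were grown for 6 days, and both treatments ran for 5 days from day 1. The compound, any vehicle for the untreated organoids and the mouse strain were not stated. Nor do the labels say that the 3 replicates of a group were separate cultures, so the p-values below rest on a spread that may be technical only. Below, "receptor inhibitor" is always the drug treatment and "CDK inhibitor" always one of the genes.

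CDK inhibitors are small proteins that hold back the cell cycle. The INK4 proteins bind CDK4 and CDK6 and keep them from pairing with D-type cyclins, while the Cip/Kip proteins bind whole cyclin-CDK complexes, above all those of CDK2. When these kinases are held, the Rb protein keeps E2F transcription factors silent and the cell stays in G1. TGF-beta, read by the receptors that the drug here blocks, is known as a brake on the growth of epithelial cells, and in many such cells it acts in part by raising Cdkn2b and Cdkn1a. In the intestine, Cdkn1a and Cdkn1b are known from cells that have left the crypt's dividing zone.

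Promoter windows are printed first for Cdkn1a, Cdkn2b and Cdkn2c, the genes called against untreated organoids (limma adjusted p under 0.05). They are shown since the receptors' signal reaches DNA through Smad proteins and Cdkn1a is a textbook target of p53. The windows searched come from RefSeq on GRCm38.p6 and run from 250 bases before to 50 after an annotated start. They cover 9 start sites of 6 of the 7 genes. Cdkn1c has no entry in that table. Capitals mark the GC box GGGCGG, to which Sp1 family factors bind, the Smad element CAGAC, and the p53 half-site, each on either strand. Windows on the minus strand are printed 5′ to 3′ along the gene.

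Cdkn1a, chr17:29090729-29091028, plus strand: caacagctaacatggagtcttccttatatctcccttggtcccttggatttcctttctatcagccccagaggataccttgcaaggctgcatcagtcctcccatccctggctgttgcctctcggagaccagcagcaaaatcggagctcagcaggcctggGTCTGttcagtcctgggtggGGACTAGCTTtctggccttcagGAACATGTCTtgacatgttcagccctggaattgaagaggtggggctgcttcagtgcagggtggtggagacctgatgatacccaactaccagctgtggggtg
Cdkn1a, chr17:29093519-29093818, plus strand: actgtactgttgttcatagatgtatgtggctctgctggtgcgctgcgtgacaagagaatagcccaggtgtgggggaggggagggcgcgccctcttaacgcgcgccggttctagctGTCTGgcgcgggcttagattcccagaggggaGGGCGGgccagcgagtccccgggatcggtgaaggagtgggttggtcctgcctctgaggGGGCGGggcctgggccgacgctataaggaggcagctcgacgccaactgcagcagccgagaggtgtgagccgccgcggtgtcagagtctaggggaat
Cdkn2b, chr4:89310983-89311282, minus strand: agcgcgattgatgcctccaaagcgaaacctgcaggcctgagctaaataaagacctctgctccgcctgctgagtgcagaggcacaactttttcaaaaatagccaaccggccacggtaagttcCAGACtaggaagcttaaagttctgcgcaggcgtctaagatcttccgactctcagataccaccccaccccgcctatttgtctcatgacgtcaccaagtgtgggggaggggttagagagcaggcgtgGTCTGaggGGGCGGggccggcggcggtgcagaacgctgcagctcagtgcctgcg
Cdkn2c, chr4:109666707-109667006, minus strand: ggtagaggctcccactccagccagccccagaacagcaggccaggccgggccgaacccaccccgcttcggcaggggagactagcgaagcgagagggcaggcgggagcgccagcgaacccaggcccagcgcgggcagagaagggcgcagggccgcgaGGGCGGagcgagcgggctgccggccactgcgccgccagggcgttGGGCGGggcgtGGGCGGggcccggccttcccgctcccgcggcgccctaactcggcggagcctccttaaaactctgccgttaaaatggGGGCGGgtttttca

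The upstream Cdkn1a window held 2 p53 half-sites, whose first bases lay at -73 and -51 from the start, and 1 Smad element at -93. The downstream Cdkn1a window held no p53 half-site, but 2 GC boxes at -104 and -46 and 1 Smad element at -135. The Cdkn2b window held 2 Smad elements at -129 and -4 and 1 GC box at 5. The Cdkn2c window printed here held 4 GC boxes, at -95, -51, -40 and 37, and no Smad element. The GC box was found in 35.7% of all 32851 windows of this length, the Smad element in 49.6% and the p53 half-site in 8.36%. These are matches of letters and say nothing of binding. Of the other CDK inhibitor windows, that of Cdkn2d held 5 GC boxes, 2 Smad elements and 1 p53 half-site, part of which overlaps a GC box. The E2F site (TTTCCCGC or TTTGGCGC, in 1.56% of windows) was matched once, in 1 of the 2 Cdkn2a windows, and the E-box CACGTG (7.15% of windows) once, in the other Cdkn2c window (chr4:109665323-109665622, minus strand), which also held 1 Smad element at -188.

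The values are deposited array signals on a linear scale, with a trimmed mean of 350.002 on every array. A gene entered the tests where its signal passed the array's 40th percentile, a signal of 25.9 to 32.0, on at least 3 arrays, and 12941 genes did. Of the CDK inhibitors, 6 of 7 genes and 8 of 9 probe sets passed. All 10 epithelial markers passed, with summed signals of 80832 to 86320 in untreated, 81821 to 94692 in receptor-inhibitor and 82314 to 96144 in ligand arrays. Of the markers of cells outside the epithelium, 6 of 9 for fibroblasts, 4 of 8 for leukocytes and 6 of 7 for endothelial cells did not pass, among them Col1a1, Col3a1, Ptprc, Cd3e, Pecam1 and Cdh5. Of the 4 leukocyte markers that did, Cd68 and Csf1r, genes of macrophages, rose under the receptor inhibitor (mean signals of 64.4 and 66.2 untreated, 112 and 140.3 treated, 60.6 and 57.5 with ligand), Lyz2 fell there and Cd74 was not called; their part in the results below was not tested. Of 9 tested readout genes of TGF-beta signalling 8 rose under the ligand, with Ccn1 up by 1.68 and Pmepa1 up by 1.55 on the log2 scale. With median centring 6 of the 9 rose, as with quantile normalization. The ligand raised 14.8% of all genes tested. Under the receptor inhibitor 4 of the 9 fell, among them Ccn1 and Pmepa1, and 1 rose: Ccn2, from a mean signal of 29.2, near the filter level, to 67.2, with 189 in ligand organoids. The median change of the 9 was 0.007 there. With either of these other scalings 3 of the 9 fell under the receptor inhibitor, where 23.9% of all genes tested fell. Pmepa1 kept its call in all 20 alternative settings of the processing, while Ccn1 lost its call in 1 (limma adjusted p = 0.444).

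Cdkn2b, the INK4 protein p15, showed the largest log2 difference between the treated groups among the 6 tested genes. Its signal was 1029, 854 and 1068 on the untreated arrays. It was 1780.1, 1778 and 1783 on the receptor-inhibitor arrays, and 672, 659.8 and 567 on the ligand arrays. All receptor-inhibitor arrays were above all untreated arrays, all ligand arrays were below them, and no groups overlapped. Cdkn2b rose under the receptor inhibitor by 0.85 ± 0.09 on the log2 scale (SE, 95% interval 0.66 to 1.05, limma adjusted p = 5.91e-06). It fell under the ligand by 0.62 ± 0.09 (SE, limma adjusted p = 0.000255). Between the treated groups the ligand organoids held 1.47 ± 0.09 less on that scale (log2 change -1.47, limma adjusted p = 2.01e-08), a difference whose size was in the 96.5th percentile of all genes tested. The order of levels was thus receptor inhibitor, untreated, ligand, with each neighbour separated from the next beyond its spread. The array cannot tell fewer cells of a type from less RNA per cell, here or for any gene below.

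Cdkn2a, the gene next to Cdkn2b on chromosome 4, encodes p16 and, from another reading frame, Arf, which restrains Mdm2. Its only probe set is of the kind that reads alternative transcripts of 1 gene, so the 2 products cannot be told apart. The signal was 2.35, 3.13 and 4.30 in untreated organoids, 8.24, 2.58 and 3.16 under the receptor inhibitor and 2.98, 8.23 and 0.996 under the ligand. Every one of the 9 values lay below its array's filter level, so the gene was not tested with the others. In a fit without the filter, Cdkn2a was not called in any comparison (limma adjusted p of 0.741 to 0.904).

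Cdkn1a, which encodes p21, also rose under the receptor inhibitor, and its change under the ligand missed the threshold. The probe set with the higher mean, which stands for the gene, read 3475, 3639 and 3758 in untreated organoids. The receptor-inhibitor arrays read 4914, 4769 and 4998, and the ligand arrays 3094, 2679 and 3443. All receptor-inhibitor arrays stood above all untreated arrays, and all ligand arrays stood below them, the highest ligand array being close to the lowest untreated one. Cdkn1a rose under the receptor inhibitor by 0.43 ± 0.09 on the log2 scale (SE, 95% interval 0.25 to 0.62, limma adjusted p = 0.00105). Under the ligand the change was -0.24 ± 0.09 (SE, limma adjusted p = 0.0548) against a threshold of 0.05. Among the settings that called it were leaving out ligand replicate 3 (log2 change -0.33, limma adjusted p = 0.00621), the filter at the 60th percentile (limma adjusted p = 0.0469) and median centring (limma adjusted p = 0.0375), within a range of 0.00621 to 0.213 over 20 alternatives. The ligand organoids were lower than the receptor-inhibitor organoids by 0.68 ± 0.09 (log2 change -0.68, limma adjusted p = 1.64e-05).

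The other Cdkn1a probe set gave 1502, 1544 and 1571 in untreated, 2425, 2300.3 and 2129.5 in receptor-inhibitor and 1223, 1289 and 1550.0 in ligand organoids. Its receptor-inhibitor arrays again stood above all others, while 1 ligand array overlapped the untreated range. It rose under the receptor inhibitor by 0.56 ± 0.09 (SE, limma adjusted p = 0.000291, over all probe sets) and was not called under the ligand (log2 change -0.19 ± 0.09, adjusted p = 0.171). Both probe sets therefore gave the same calls in these comparisons.

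Cdkn2c, which encodes the INK4 protein p18, went the other way under the receptor inhibitor. The untreated arrays read 526, 547 and 561. The receptor-inhibitor arrays read 421, 421 and 462, and the ligand arrays 552, 497 and 644. The receptor-inhibitor group lay below both others without overlap, and the ligand group spanned the untreated one. Cdkn2c fell under the receptor inhibitor by 0.32 ± 0.09 on the log2 scale (SE, limma adjusted p = 0.0127), and did not differ detectably under the ligand (log2 change 0.04, 95% interval -0.16 to 0.24, limma adjusted p = 0.790). It was 0.36 ± 0.09 higher in ligand than in receptor-inhibitor organoids (SE, limma adjusted p = 0.00453). Both calls were lost when each array was centred on its median (limma adjusted p = 0.0638 and 0.147).

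Cdkn2d, which encodes the INK4 protein p19, was called in neither treated group against untreated organoids. Untreated arrays read 380.5, 431 and 430.1, receptor-inhibitor arrays 452, 407 and 422, and ligand arrays 383, 349.5 and 365. The receptor-inhibitor and untreated ranges overlapped, and 1 ligand array lay within the untreated range while the other two lay below it. The log2 changes against untreated organoids were small (0.04 ± 0.08, limma adjusted p = 0.706, and -0.17 ± 0.08, limma adjusted p = 0.162). Ligand organoids were lower than receptor-inhibitor organoids by 0.21 ± 0.08 (log2 change -0.21, limma adjusted p = 0.0420), with no overlap. Among the settings that lost this call were no filter (limma adjusted p = 0.0514), the fit over all probe sets (0.0509), and leaving out untreated replicate 2, inhibitor replicate 1, inhibitor replicate 3, ligand replicate 2 or ligand replicate 3 (0.0507 to 0.141). The change under the ligand was called with quantile normalization (limma adjusted p = 0.0494).

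Cdkn1b, which encodes p27, had no call in any comparison. The probe set that stands for the gene read 2799.8, 2926 and 2952 in untreated, 2154, 2316 and 2776 in receptor-inhibitor and 2834, 2605 and 1659 in ligand organoids. The receptor-inhibitor arrays all lay below the untreated arrays, the highest of them by little. In the ligand group, replicate 3 stood far below the other two. The log2 change was -0.27 ± 0.16 under the receptor inhibitor (SE, 95% interval -0.60 to 0.07, limma adjusted p = 0.186) and -0.32 ± 0.16 under the ligand (95% interval -0.66 to 0.01, limma adjusted p = 0.156). The change under the receptor inhibitor was called, at the same size, without ligand replicate 3 (limma adjusted p = 0.0184) and in a fit of those 2 groups alone (0.0235), within a range of 0.0184 to 0.437. The change under the ligand was called without ligand replicate 1 (log2 change -0.47, limma adjusted p = 0.0498) and with median centring (0.0416). It was also called with the mean of both probe sets (0.0105), which brings in the dimmer set described next. In 17 of 20 alternatives it stayed uncalled, with limma adjusted p of 0.0105 to 0.536 over all of them. Without ligand replicate 3 that change was only -0.09, the smallest of the 20. The other Cdkn1b probe set read 78.3, 55.0 and 79.5 in untreated, 83.4, 50.8 and 43.2 in receptor-inhibitor and 31.5, 52.0 and 36.4 in ligand organoids, with changes of -0.23 ± 0.22 (adjusted p = 0.444) and -0.64 ± 0.22 (adjusted p = 0.0647).

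Cdkn1c, which encodes p57, had signals of 42.0 to 156.7, above the filter level on every array. Untreated arrays read 100.7, 79.9 and 90.3, receptor-inhibitor arrays 120.4, 42.0 and 51.3, and ligand arrays 116.5, 141.5 and 156.7. The ligand arrays were all above the untreated arrays, and receptor-inhibitor replicate 1 stood well above its other two replicates. Against untreated organoids neither change was called (log2 change -0.39 ± 0.25, limma adjusted p = 0.236, under the receptor inhibitor and 0.53 ± 0.25, limma adjusted p = 0.148, under the ligand). Cdkn1c was higher in ligand than in receptor-inhibitor organoids by 0.92 ± 0.25 (SE, limma adjusted p = 0.00669), although receptor-inhibitor replicate 1 overlapped the ligand range. Without that array, both changes against untreated organoids were called, at -0.76 (limma adjusted p = 0.00308) and 0.53 (limma adjusted p = 0.0217). A fit of the untreated and ligand groups alone also called the second (limma adjusted p = 0.0237). Over 20 alternatives the change under the receptor inhibitor stayed uncalled in 19 (limma adjusted p of 0.00308 to 0.679). That under the ligand stayed uncalled in 18 (0.0217 to 0.312).

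**Figure D1:**
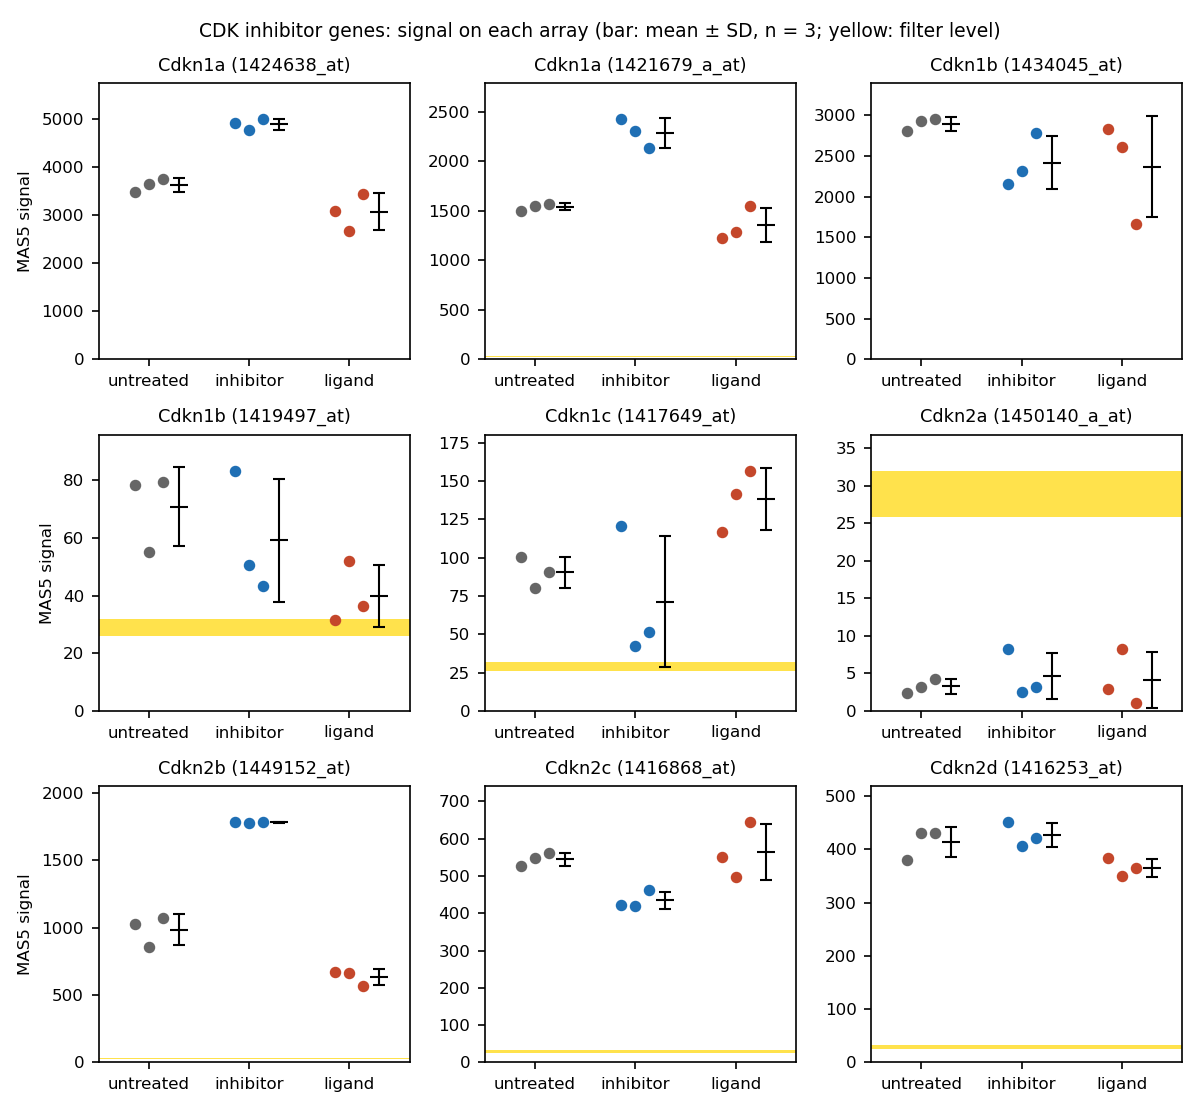
Signal of each CDK inhibitor probe set on the 9 arrays, as deposited and on a linear scale, 1 panel per probe set, with a point per array, the group mean ± SD, and the filter level in yellow ("inhibitor" is the receptor inhibitor). Cdkn2b runs from 1783 at its highest receptor-inhibitor array to 567 at its lowest ligand array with no overlap between groups, while all Cdkn2a values lie at 8.24 or below.

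Read as a family, the CDK inhibitors did not move as 1 block. Under the receptor inhibitor 3 of the 6 tested genes were called, 2 higher (Cdkn1a and Cdkn2b) and 1 lower (Cdkn2c), where 45.1% of all genes tested were called, 21.2% higher and 23.9% lower, so the share is near the background. Under the ligand 1 of 6 was called, Cdkn2b, lower, against 24.1% of all genes, 14.8% higher and 9.36% lower. Between ligand and receptor inhibitor 5 of 6 were called, 2 higher (Cdkn1c and Cdkn2c) and 3 lower (Cdkn1a, Cdkn2b and Cdkn2d), against 55.6% of all genes, 32.6% higher and 23% lower. Groups did not overlap in 4, 3 and 4 of the 6 genes, against 56%, 38.7% and 60.6% of all genes. After median centring, the share of all calls that were higher went from 61.2% to 36.5% under the ligand. It went from 58.6% to 41.9% between the treated groups and from 46.9% to 53.1% under the receptor inhibitor. The median change of the 6 genes was -0.11, -0.21 and -0.14 in these comparisons, where the median over all genes was -0.01, 0.05 and 0.07. By probe set 4, 1 and 5 of 8 were called, against 37.8%, 17.6% and 49.4% of all probe sets. The comparisons against untreated organoids share the same 3 untreated arrays, so the changes of a gene under both treatments are given side by side and are not independent.

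The contrast that adds both changes asks whether a gene departed from equal and opposite changes. For the CDK inhibitors limma called 0 of 6 genes, with 1 of 6 (Cdkn1b) at an unadjusted p under 0.05, where 23.8% of all genes tested were called. The limma adjusted p was 0.320 for Cdkn2b, 0.404 for Cdkn1a and 0.135 for Cdkn1b. For Cdkn2b the sum was 0.23 on the log2 scale, with a 95% interval of -0.10 to 0.57.

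**Figure D2:**
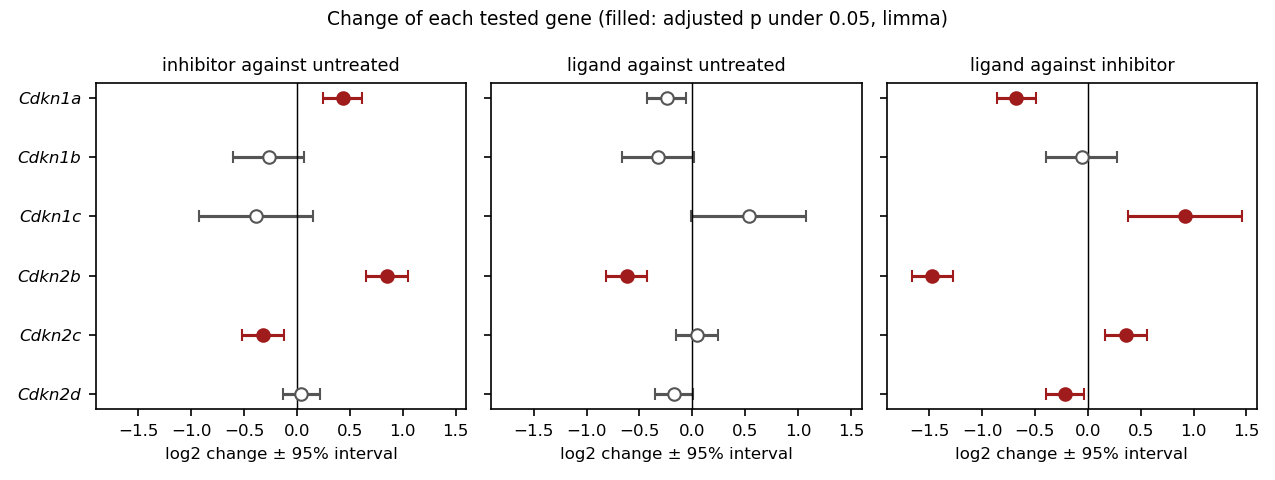
Log2 change of each tested CDK inhibitor gene in 3 comparisons, with points for the estimate and bars for the 95% interval, and filled points where the limma adjusted p was below 0.05. Cdkn2b shows 0.85 under the receptor inhibitor and -0.62 under the ligand, while the interval of Cdkn1b includes 0 in all 3.

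Among the kinases and cyclins that these proteins restrain, most fell under the receptor inhibitor. Of 13 G1 cyclins and kinases 8 fell and the others were not called, with a median change of -0.39. Ccnd1, which encodes cyclin D1, fell by 1.63 ± 0.06 (SE), from a signal of 1655 ± 3.86 (SD, n = 3) to 524 ± 27.3. Cdk4 fell by 1.09 ± 0.07, Cdk6 by 0.82 ± 0.09 and Ccna2, the cyclin of S phase, by 0.86 ± 0.07. Under the ligand 4 of the 13 rose and the others were not called, with Cdk6 up by 0.80 ± 0.09 and Ccnd1 up by 0.46 ± 0.06, while Cdk4 was not called (log2 change 0.13, limma adjusted p = 0.212). Between ligand and receptor inhibitor 9 rose and 1 fell, and 5 rose and 1 fell after median centring. Over all genes tested, 23.9% fell and 21.2% rose under the receptor inhibitor. The ligand raised 14.8% and lowered 9.36%, and between the treated groups 32.6% rose and 23% fell.

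The genes of proteins downstream of these kinases went in both directions. Of 13 Rb and E2F genes, 6 fell and 2 rose under the receptor inhibitor, among them E2f8 (down by 0.91 ± 0.07), a repressor of the E2F family, and the E2F partners Tfdp2 and Tfdp1 (log2 changes -0.77 and -0.57). Rb1, the Rb protein's own gene, rose by 0.30 ± 0.08 there (limma adjusted p = 0.00612; 0.0770 with the mean of probe sets) and fell under the ligand by 0.92 ± 0.08 (limma adjusted p = 3.92e-06). Its signal was 1770.4 ± 129 (SD, n = 3) in untreated, 2185 ± 34.7 in receptor-inhibitor and 931 ± 83.7 in ligand organoids, the same order as for Cdkn2b. Under the ligand 1 of the 13 rose, E2f1, and 2 fell, Rb1 and E2f8. Over all genes tested 45.1% were called under the receptor inhibitor and 24.1% under the ligand. The share of this list called under the ligand is thus near the background. The call of E2f1 was lost with quantile normalization, with median centring and without untreated replicate 1, untreated replicate 2 or ligand replicate 1 (limma adjusted p of 0.0539 to 0.0903). That of E2f8 was lost without any 1 array other than inhibitor replicate 1 (0.0521 to 0.147), in the 2-group fit (0.0701) and with no intensity trend (0.0613), among others.

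Genes of cell division were mostly lower under the receptor inhibitor. Of 23 proliferation genes 22 fell, with a median change of -0.86; Tk1, a thymidine kinase, fell by 1.34 ± 0.07, and Mcm6 and Mcm3 of the DNA helicase fell by 1.24 ± 0.07 and 1.06 ± 0.06. Mki67, the gene of the Ki-67 antigen, fell by 0.57 ± 0.08. Under the ligand 6 rose and 4 fell with a median of 0.04, and Mki67 was not called (log2 change 0.01, limma adjusted p = 0.963). After median centring 2 rose and 5 fell there. Over all genes tested 23.9% fell under the receptor inhibitor, and the ligand raised 14.8% and lowered 9.36%. Cdkn2b and Cdkn1a were thus higher, and Cdkn2c lower, in the group with less RNA of proliferation genes.

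Transcription of Cdkn1a is known to be raised by p53. Of 21 tested genes known as targets or regulators of p53, 16 rose and 2 fell under the receptor inhibitor, with a median change of 0.50. Of all genes tested, 21.2% rose and 23.9% fell there. The list held 23 genes, but Trp53, the gene of p53 itself, and Bax had no probe set annotated to them alone and gave no value. Ccng1, a cyclin G, rose by 0.86 ± 0.07 and Plk2, a kinase, by 1.08 ± 0.10. Pmaip1, which promotes apoptosis, rose by 0.61 ± 0.06 and Mdm2, the p53 ubiquitin ligase, by 0.50 ± 0.08. Mdm4 and Ddb2 were those that fell, from mean signals of 1195 and 406 in untreated to 798 and 227 in receptor-inhibitor organoids. Under the ligand 3 rose and 3 fell, and after median centring 1 rose and 3 fell. The ligand raised 14.8% and lowered 9.36% of all genes tested. Plk2 rose by 1.29 ± 0.10 there as well and the death receptor gene Fas fell by 0.98 ± 0.12, while Mdm2 was not called (log2 change -0.08, limma adjusted p = 0.503). The list was drawn up with results of these data known, so the count is not independent evidence of its direction.

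Of 23 genes for transcription factors and chromatin proteins known to act on CDK inhibitor genes, 11 fell and 2 rose under the receptor inhibitor. Over all genes tested 23.9% fell and 21.2% rose there. Id1, which holds back E proteins, fell by 1.34 ± 0.09, Myc, a repressor of Cdkn2b and Cdkn1a in other cells, by 0.74 ± 0.08, and Klf6 rose by 0.63 ± 0.08. Under the ligand 7 rose and 1 fell: Id1 rose by 0.60 ± 0.09, Myc by 0.33 ± 0.08 and Ets2 by 0.59 ± 0.11, and Klf4 fell by 0.44 ± 0.07. After median centring 3 rose and 1 fell, and Myc was no longer called. Over all genes tested the ligand raised 14.8% and lowered 9.36%. Smad3, which carries the receptors' signal, fell under the receptor inhibitor by 0.24 ± 0.07 (limma adjusted p = 0.0114) and rose under the ligand by 0.29 ± 0.07 (limma adjusted p = 0.00708). Both Smad3 calls were lost with median centring (0.109 and 0.201) and with the mean of probe sets (0.874 and 0.353). Smad4 was called in neither comparison (log2 changes -0.07 and 0.08).

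CDK inhibitor proteins are also set by their breakdown, which RNA does not show. Of 14 genes for that turnover 6 fell and 2 rose under the receptor inhibitor, where 23.9% of all genes tested fell and 21.2% rose. Skp2, the ligase subunit that marks p27 for breakdown, fell by 0.76 ± 0.09 and its cofactor Cks1b by 0.41 ± 0.08. Dtl, which marks p21, fell by 0.95 ± 0.14. Cul1 was among the genes that rose (mean signal 1146 untreated, 1319 treated, limma adjusted p = 0.0216), a call lost in 3 of 20 alternatives. Under the ligand, where 24.1% of all genes tested were called, limma called 0 of 14, with 2 of 14 at an unadjusted p under 0.05. Of 5 other genes named for the family, Cdkn3, a phosphatase of CDK2 and no kinase inhibitor in the strict sense, fell under the receptor inhibitor by 0.65 ± 0.07, and 3 of 5 fell in all.

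**Figure D3:**
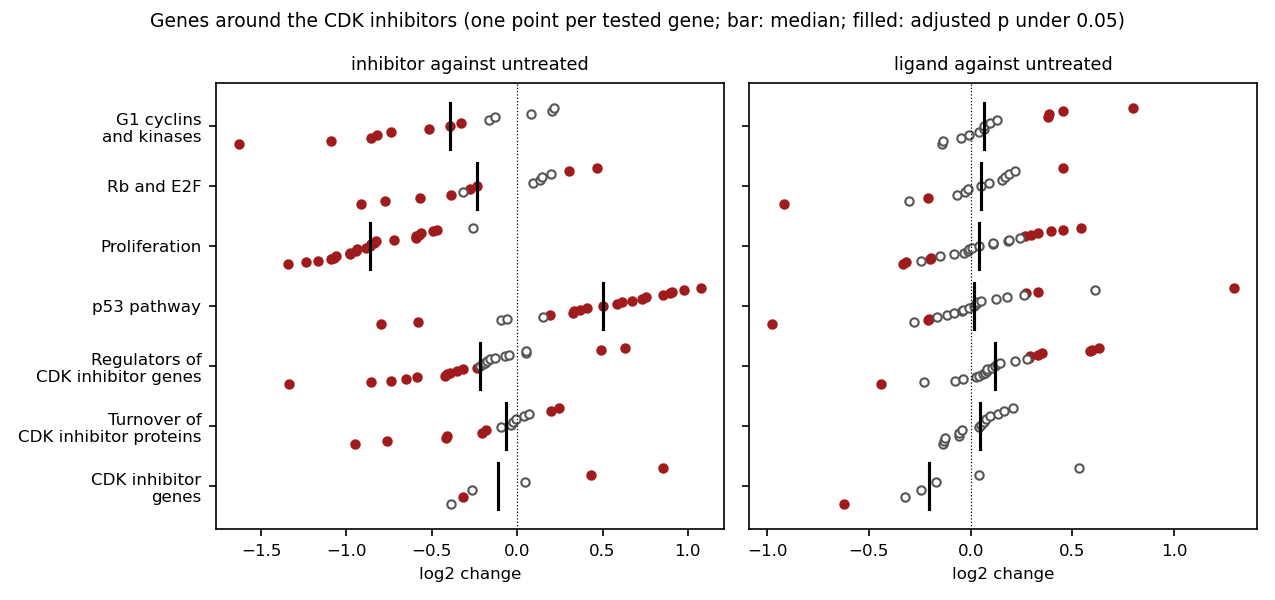
Log2 change of every tested gene in 6 pathway lists and of the CDK inhibitor genes, under the receptor inhibitor (left) and the ligand (right), 1 point per gene, filled where called, with the median as a bar. Proliferation genes sit at a median of -0.86 under the receptor inhibitor and 0.04 under the ligand, and the p53 list at 0.50 and 0.02.

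Markers of epithelial cell types differed between the groups beside the CDK inhibitors. The summed signal of 11 enterocyte genes was 70301 to 78129 in untreated, 83713 to 100807 in receptor-inhibitor and 53806 to 61792 in ligand organoids, the same order as for Cdkn2b. The summed signal of 10 stem cell genes was 24005 to 26734 in untreated, 7459 to 7918 in receptor-inhibitor and 32045 to 34653 in ligand organoids, the reverse order. Olfm4 carried much of the fall in that sum, with mean signals of 12861 untreated, 819 under the receptor inhibitor and 14648 under the ligand. Of all genes tested, 45.1% were called under the receptor inhibitor and 24.1% under the ligand. Under the receptor inhibitor 7 of the 11 enterocyte genes rose, and 9 of the 10 stem cell genes fell and 1 rose. Under the ligand 6 of the 11 enterocyte genes fell and 1 rose, and 7 of the 10 stem cell genes rose. The part of this shift in the CDK inhibitor changes was not tested.

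The genes whose profile over the 9 arrays lay nearest to a CDK inhibitor were ranked by the root mean square difference in log2 signal among 12940 other genes. Nearest to Cdkn2b were Abca14 at 0.0997, Coro2a at 0.102 and Smim31 at 0.111. Nearest to Cdkn1a were Entpd2, an ectonucleotidase, at 0.0501, Sc5d, an enzyme of cholesterol synthesis, at 0.0588 and Nol4l at 0.0703. Nearest to Cdkn2c were Etf1 at 0.0585, Ncbp1 at 0.0612 and Mapkapk3 at 0.0622, and nearest to Cdkn2d was Gatd3a at 0.0416. For Cdkn1c the nearest gene, Rnf150, was at 0.190.

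**Figure D4:**
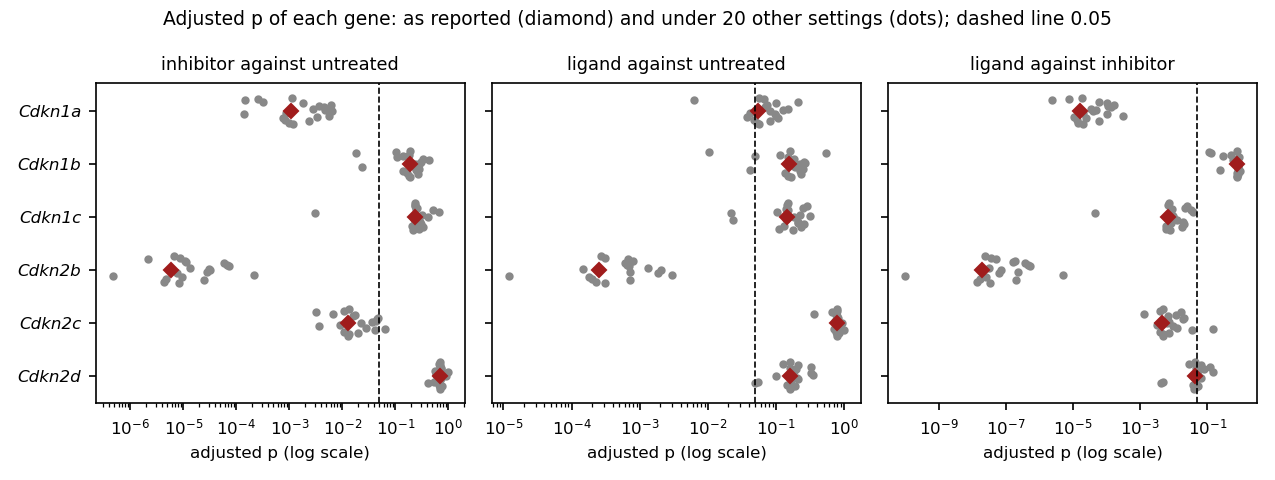
Limma adjusted p of each tested CDK inhibitor gene in 3 comparisons as reported (diamond) and under 20 processing alternatives (dots), on a log axis, with 0.05 as a dashed line. Cdkn2b keeps its side of the line in all 3 comparisons, while the ligand comparison of Cdkn1a runs from 0.00621 to 0.213 across it.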

How the data were processed

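The 9 arrays were grouped by the treatment in their titles and characteristics, 3 per group. The values are array intensities on a linear scale, 1 per probe set and array, that the authors made with MAS5, per the submitters' processing notes; its version and the step that set the common scale are not stated there. RNA was labelled by a 3 prime assay, per the labels' protocols. MAS5 leaves dim signals noisy, and a common scale removes differences in total RNA. For 34945 of 45101 probe sets the platform annotation gave 1 symbol; 932 had several, 9211 none, and 64 controls were left out.

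Tests used log2(signal + 16), which understates changes of dim genes (28.9% of values were at or below 16). A gene was read from its brightest probe set. One limma 3.58.1 model in R 4.3.3, with a mean per group and an intensity trend, was fitted over all 9 arrays, with Benjamini-Hochberg adjustment over all features and a threshold of 0.05; "±" after a log2 change is an SE. The scripts were tested on simulated data. Promoters were searched with Python 3.11.15. Named genes were the 7 CDK inhibitors, up to 3 genes per list and comparison by p-value, 10 fixed regulators, and the 3 nearest profiles of each called member. The members and lists were chosen with earlier results of these data known. Number of arrays limits the precision. Alternatives were other offsets, filters, scalings, probe set rules, a 2-group fit, a replicate block and leaving out each array.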

Additional observations from a re-analysis of the deposited data

How the results depend on the processing

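Over 20 alternatives in the 3 comparisons between groups, 338 of 360 values for the CDK inhibitor genes kept their status. That number includes values not called in either fit. Of the rest, 9 lost a call, 13 gained one and 0 reversed. Cdkn2b in all 3 comparisons, Cdkn1a in receptor inhibitor against untreated and ligand against inhibitor, and Cdkn1c in ligand against inhibitor kept their calls. The count of CDK inhibitor genes called in ligand against untreated, 1 of 6, was 2 with the filter at the 60th percentile, 2 with quantile normalization, 3 with median centring, 2 in the 2-group fit, 2 with the replicate block and 2 with the mean of probe sets; leaving out 1 array gave 1 to 2, the 2 coming without inhibitor replicate 1, ligand replicate 1 or ligand replicate 3. By probe set the count, 1 of 8, was 2 with quantile normalization, 3 with median centring and 2 in the 2-group fit, and leaving out 1 array gave 1 to 3. In the summed contrast the count, 0, was 1 with the mean of probe sets (Cdkn1b, limma adjusted p = 0.0210). The cause was not tested. Median centring moved the median of all genes from 0.05 to -0.06 for ligand against untreated and from 0.07 to -0.09 for ligand against inhibitor. In these the share of calls that were higher went from 61.2% to 36.5% and from 58.6% to 41.9%. For receptor inhibitor against untreated the median went from -0.01 to 0.03 and that share from 46.9% to 53.1%. Replicate numbers did not pair the arrays: deviations of same-numbered arrays correlated at -0.0793 to 0.0740, and 1 of 9 arrays correlated best with its own number. The replicate block gave 3013 genes called for ligand against untreated in place of 3125; with it Cdkn1a was called in ligand against untreated (limma adjusted p = 0.0414), and the calls of Cdkn2d in ligand against inhibitor (0.0626) and of E2f8 in ligand against untreated (0.0658) were lost. Dim probe sets (Cdkn2a, Cdkn1c, the second Cdkn1b set) limit what could be detected.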

Other observations

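Some markers of the rarer epithelial cell types were also called between the groups in which the CDK inhibitor genes were read. Of all genes tested, 45.1% were called under the receptor inhibitor and 24.1% under the ligand. The tuft, Paneth and goblet cell counts under the receptor inhibitor lie near or below that share. Of 9 enteroendocrine genes 4 rose and 1 fell under the receptor inhibitor, and 7 rose under the ligand, or 4 after median centring. Of 6 tuft cell genes 3 fell under the receptor inhibitor and 4 rose under the ligand, with summed signals of 359 to 446 in untreated, 181 to 227 in receptor-inhibitor and 856 to 941 in ligand organoids. Of 7 Paneth cell genes 2 fell under the receptor inhibitor, and under the ligand 3 rose and 1 fell. Of 8 goblet cell genes 4 fell under the receptor inhibitor, and under the ligand 1 rose and 2 fell. Calls are by limma, adjusted over all genes, and their part in the CDK inhibitor values was not tested.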
